A study of Homo sapiens with 2 samples.

Results

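HNRNPC peaks in short, compact protein-coding genes were taken from the peak list of an RNA immunoprecipitation sequencing (RIP-seq) experiment in A549 cells, a long-established line derived from a human lung tumour of the non-small cell type. They were chosen by position and gene length, with earlier results of these data known. A peak belonged to the set when its summit lay in exactly 1 RefSeq protein-coding gene span of at most 10819 bp. Only chromosomes 1 to 22 and X were used, and summits that also lay in a further protein-coding span were left out. The set held 250 of 23148 peaks, in 120 of 5976 such genes. Replication-dependent histone genes were kept apart, with 31 peaks in 31 genes, and the other 219 peaks lay in 89 genes. The series had 2 samples of this line: RNA immunoprecipitated (IP) with 5 µg of anti-HNRNPC antibody, and input RNA, labelled as having no RIP antibody. The labels name no treatment or genetic change in either. Peaks belong to the IP sample, and values of the input sample itself were not used here. Each sample is a single library of a single line, so replicate error is unknown and differences were described without tests.

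HNRNPC is an abundant nuclear protein that coats nascent transcripts and is known to bind runs of U. In long genes much of the RNA that it meets is intron, whereas compact genes have short introns or none. Replication-dependent histone genes are the extreme case: they have no introns, and their mRNAs end in a conserved stem-loop in place of a poly(A) tail. They supply the core histones H2A, H2B, H3 and H4 and the linker histone H1 during DNA replication. RNA was fragmented before the libraries were made, so a peak marks fragments of bound RNA and not a base of contact.

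The fold enrichment and q of each peak are the authors' values, a ratio over the background that the peak caller used and the significance it gave. Fold and p together held the reads behind each summit. In all 23148 peaks, p was met within 0.001 on the −log10 scale by a whole number of IP reads, each counted as 0.535 of a control read. On this reading the fold was the scaled IP reads plus 1, divided by the control level plus 1. The control level is the background, in reads, that fold and p imply for the summit. A level below 1 is not a count of control reads at the summit itself. The lowest control level was 0.103. For 1 of the 250 peaks a second whole number met p as well. The total reads of the libraries are unknown. Intervals are 95% exact intervals, Poisson for reads and for the folds computed from them with the control held fixed, Clopper-Pearson for shares. For a count of 0, the limit given is 3 counts of the total. These cover counting error only. The interval of a median was taken from the ranked values and gives the uncertainty of the median over the peaks, not the spread among them. Intervals over peaks treat the peaks as independent, although peaks of 1 gene may share reads.

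The reference holds 250 bases before and 50 bases after annotated gene starts, so sequence could be shown only there. It had an entry, and hence a strand, for 96 of the 120 genes, namely 26 histone and 70 other genes. The sequences are from RefSeq on GRCh38.p14 and read 5′ to 3′ on the strand of the gene. The first set gives the 60 bases before the start of the histone genes of highest fold that have an entry, with TATAA in capitals. TATAA was found there in most, not all, histone genes, both with and without a peak.
H1-3, chr6:26234988-26235047, minus strand: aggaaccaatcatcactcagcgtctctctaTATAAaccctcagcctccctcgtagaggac
H1-4, chr6:26156269-26156328, plus strand: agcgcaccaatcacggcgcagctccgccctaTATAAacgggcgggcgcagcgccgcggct
H4C2, chr6:26027284-26027343, minus strand: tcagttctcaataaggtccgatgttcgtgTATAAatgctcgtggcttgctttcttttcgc
The second set gives 30 transcribed bases near the start of 4 histone genes, with runs of 4 or more T (U in the RNA) in capitals, since such runs are the known target of HNRNPC.
H4C2, chr6:26027254-26027283, minus strand: gtacctggTTTTTgttgtcagctggttaga
H4C5, chr6:26204610-26204639, plus strand: agaTTTTTgcggctaTTTTcgttggtgtgt
H2AC15, chr6:27838333-27838362, minus strand: ttactgattgaaTTTTTTacgtcatgtcgg
H3C1, chr6:26020467-26020496, plus strand: ttccgctgtgctgTTTTTccgtcatggctc
The third set gives 30 bases around peak summits that fell in a start window; a run of 4 or more T would be in capitals, and the 5 printed windows hold none, whereas the summit of H3C1 lay a few bases after the run printed above.
H2BC15, chr6:27838596-27838625, plus strand: ggtaggttgacagagctaccgtcttcctgt
ZNF770, chr15:34988221-34988250, minus strand: ttcgcggcacctgggcctgaggtgcgtgcc
ARL6IP1, chr16:18801477-18801506, minus strand: ggaggtggcctgcgcttgtagagactgcat
VAMP3, chr1:7771316-7771345, plus strand: ctccggtcccaacttcgcttctctgctgac
TMEM97, chr17:28319206-28319235, plus strand: tcacatcagcgggtccaggcccaaccgaca

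Few short genes carried a peak. Of the 5976 genes 120 did (2.01%), where 17.2% of all 19974 protein-coding genes had a peak of their own. Histone genes stood at 31 of 66 within the length limit (47.0%, interval 34.6 to 59.7%), and the other short genes at 89 of 5910 (1.51%). Among non-histone genes none of the 1188 with a span of 2000 bp or less had a peak, which allows a share of up to 0.253%. Above that and up to 5000 bp 7 of 1909 genes had one (0.367%), up to 8000 bp 36 of 1543 (2.33%), and from there to the limit 46 of 1270 (3.62%, 2.66 to 4.80%). In the next class, up to 20000 bp, the share was 8.85%. The density of peaks per Mb of summed span was higher in each of these classes than in the one before, at 1.97 (1.05 to 3.38), 7.67, 10.95 and 18.05 per Mb. It was 27.4 per Mb in genes up to 50000 bp and lower again, 15.5 (15.2 to 15.7), in those above. Expression was not measured in the peak list, so a gene without a peak may be silent, and the part of expression in these shares was not tested.

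**Figure D1:**
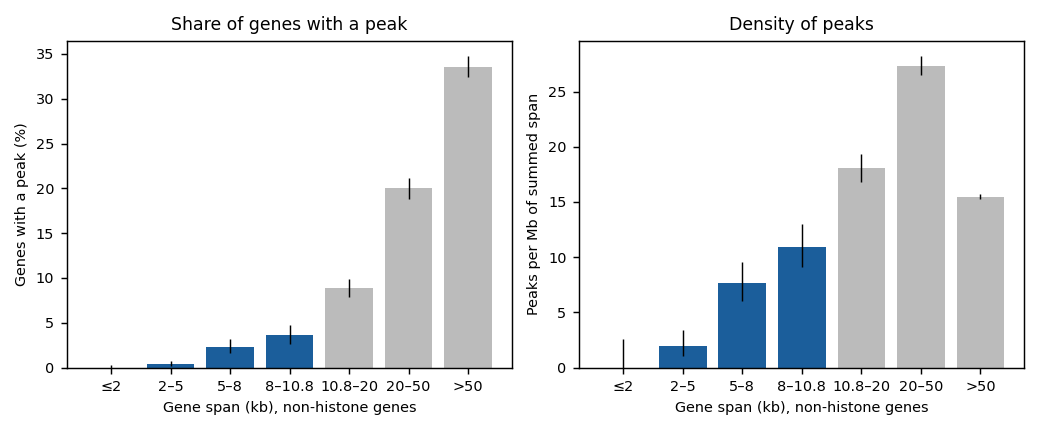
Share of non-histone protein-coding genes with a peak (left, percent) and peaks per Mb of summed gene span (right) by class of gene span in kb; blue bars are the short genes, grey bars longer genes, and black lines 95% exact intervals for counting error. The share climbs from 0 of 1188 genes at 2000 bp or less to 3.62% just under the limit and 8.85% in the next class.

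All 5 histone types carried peaks. H4 genes had a peak in 7 of 14 cases, H2B in 8 of 16, H1 in 3 of 6, H3 in 6 of 13 and H2A in 7 of 17, so that the shares, 41.2% for H2A to 50% for H1, H2B and H4, lay within each other's intervals. Each gene with a peak had exactly 1. The median fold was 14.98 over the H4 genes and 20.4 over the H1 genes, against 8.68 for H2B, 7.60 for H3 and 6.51 for H2A. The core histone genes of a type are known as a family of closely similar copies, so reads may have been split between genes and the value of a single copy is uncertain. How similar the copies are was not analysed here.

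H4C3, a gene for core histone H4, had the highest fold of the whole list, 31.5 (24.4 to 40.03), on 63 IP reads at the lowest control level of 0.103. Its peak, chr6:26103945-26104316, was 372 bp wide in a span of 405 bp. Among the histone peaks the linker histone gene H1-3 came next, with a fold of 22.03 (16.4 to 29.01) on 47 reads and a control level of 0.188, in a peak of 742 bp. A further linker histone gene, H1-4, had 20.4 (15.5 to 26.3) on 54 reads. H4C2 had 18.3 on 38 reads, H4C8 had 16.2 and H4C5 had 14.98, both on 34 reads. The H3 gene with the highest fold was H3C13 at 14.01 on 27 reads, and the H2A genes H2AC4 and H2AC11 had 11.8 and 11.6. The intervals of H1-3 and H1-4 overlap widely, so the order of these neighbours is not set by these counts.

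The rest of the histone folds ran on without a gap. H4C13 had 11.6 and H3C11 10.1, and with the genes named above they made 11 of 31 histone peaks at a fold of 10 or more (35.5%, 19.2 to 54.6%), where 8.92% of all 21759 peaks in exactly 1 protein-coding gene reached that fold. H1-5 (9.64), H2BC10 (9.52), H2BC6 and H2BC15 (9.32 each), H2BC14 (9.03) and H2BC13 (8.34) formed the middle, 5 of these being H2B genes. H3C2 (7.73), H3C14 (7.48), H2AC21 (7.03), H3C12 (6.80), H2AC15 (6.51) and H4C1 (6.12) came next. The lowest were H2AC17 (5.51), H2BC4 (5.50), H2AC12 (5.39), H2BC7 (5.27), H2BC21 (5.20), H3C1 (4.79), H4C14 (4.31) and H2AC13 (3.86). By the formula above a low fold comes from few reads or a higher control level, and both cases occurred. H3C1 had 8 reads at a control level of 0.103, whereas H2BC21 had 37 reads and H2AC13 27, both at a control level of 3.0. The lower bound of the fold lay above 5.76, the median of all peaks in exactly 1 protein-coding gene, in 16 of the 31. The same count over all 21759 peaks was not made, so no background share stands beside it.

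**Figure D2:**
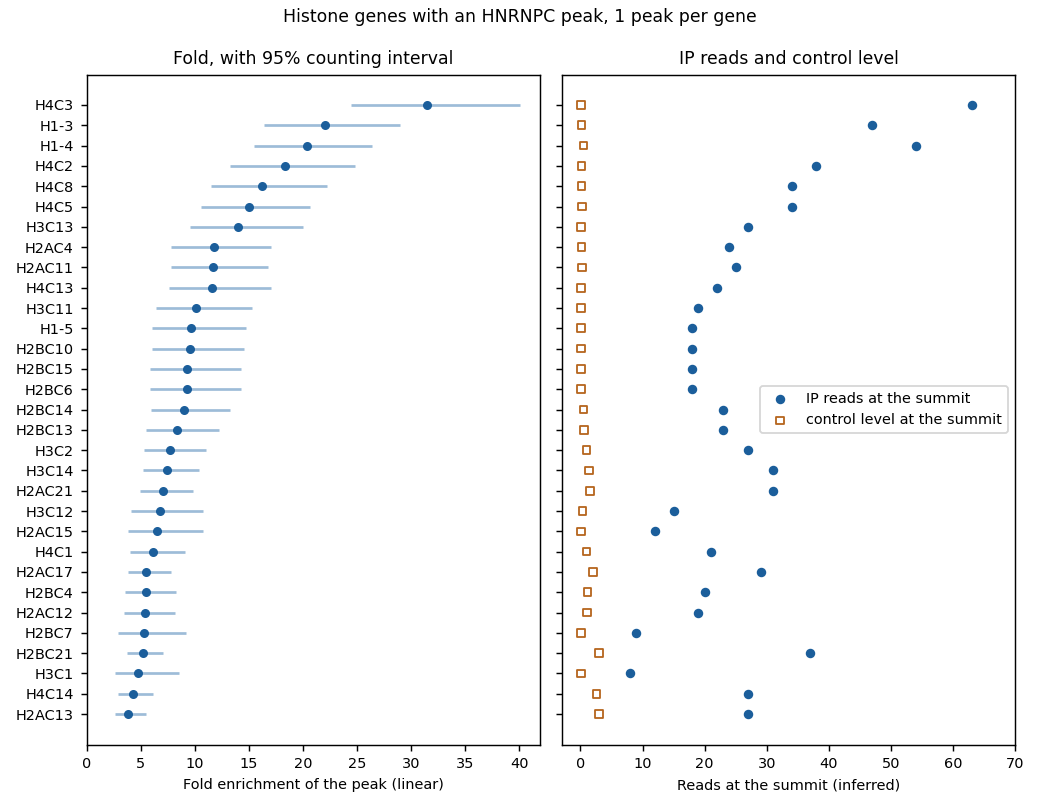
Fold enrichment of the 31 histone peaks with its 95% Poisson counting interval (left) and the inferred IP reads (filled circles) and control level (open squares) at each summit (right), 1 row per gene. H4C3 leads with 63 reads, and the genes of lowest fold, H2AC13 and H4C14, had as many reads as H3C13 but control levels of 3.0 and 2.58.

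Most histone peaks covered most of the gene span. In the 29 histone genes with a peak and a span of 1000 bp or less, the spans were 387 to 797 bp and the peaks covered a median of 85.1% of them (11.0 to 95.6%); 22 of 29 were covered to 75% or more. For the 24 of these with a known strand, the edge of the peak lay a median of 27 bp from the 5′ end and 38 bp from the 3′ end. Edges within 50 bp of the ends were found in 22 genes at the 5′ end and in 18 at the 3′ end. The summit lay anywhere between 7.76 and 85.6% of the way along, with a median of 47.2%. The genes under 75% were H2BC7 (11.0%, a peak of 52 bp), H4C14 (22.0%, 87 bp), H2AC12 (32.6%), H3C1 (40.4%), H3C12 (43.4%), H2AC21 (61.8%) and H4C1 (72.4%).

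Histone genes annotated with a longer span kept the peak at the front. H2BC4, whose span of 10757 bp lies just under the limit, had its 386 bp peak with a summit 0.530% of the way along, and H2BC21, with a span of 2224 bp, had a 388 bp peak at 2.83%. Both widths match the compact copies, whose median was 389 bp.

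Of the 35 histone genes within the limit without a peak of their own, H1-1, H1-2 and H1-6 among them, 1 had an overlapping peak. It was H3C15, whose peak of fold 7.09 on 29 reads had a summit that also lay in the span of H4C15. The first cluster on chromosome 6 held 14 genes with a peak of 33, the second 12 of 21 and the main cluster on chromosome 1 5 of 9, and the 3 histone genes elsewhere had none. Their median folds were 10.6, 8.68 and 7.03.

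Near the start, histone genes shared sequence features that most genes lack. A run of 4 or more T on the sense strand in the first 50 transcribed bases was present in 37 of 61 histone genes with an entry (60.7%) and in 9.04% of 15813 protein-coding genes. It was present in 19 of 26 histone genes with a peak (73.1%, 52.2 to 88.4%) and in 18 of 35 without one (51.4%, 34.0 to 68.6%), intervals that overlap. In 5 of those 19 genes, H3C1 among them, the first run lay inside the called peak, and in the others, such as H4C2, H4C5 and H2AC15, it lay at least partly outside it. The median fold was 8.34 with a run and 9.64 without. TATAA on the sense strand within 50 bases before the start was found in 77.0% of the 61 histone genes, against 6.09% of all, at 76.9% of those with and 77.1% of those without a peak. CCAAT on either strand in the 250 bases before the start was found in 84.6% and 85.7%, against 34.4% of all. These matches describe the windows only.

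Outside the histones, the peaks were of ordinary height. The 219 peaks had a median fold of 5.55 (5.28 to 5.81), with quartiles of 4.54 and 6.91 and a range from 2.45 to 16.4. The 21509 peaks of longer genes had a median of 5.76. A fold of 10 or more was reached by 12 of the 219 (5.48%, 2.86 to 9.38%), against 8.92% of all such peaks. These summits had a median of 21 IP reads (6 to 65) against 15 in all longer genes, and a median control level of 1.00 against 0.127. Genes above the limit and up to 20000 bp were close to the short genes, with medians of 20 reads and 0.893. The control level was about 1 or more at 122 of 219 summits (55.7%, 48.9 to 62.4%). It was so at 49.1% (45.6 to 52.6%) in genes up to 20000 bp, and at 30.7% in all longer genes. Among summits with a control level below that the median fold was 6.18 in short genes and 6.24 in longer genes, and among the others 4.87 and 4.94. In both strata the medians of longer genes lay inside the intervals of the short genes, 5.76 to 7.06 and 4.53 to 5.32. The lower bound of the fold exceeded 5.76 in 19 of the 219 peaks, again without a background share over all peaks.

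**Figure D3:**
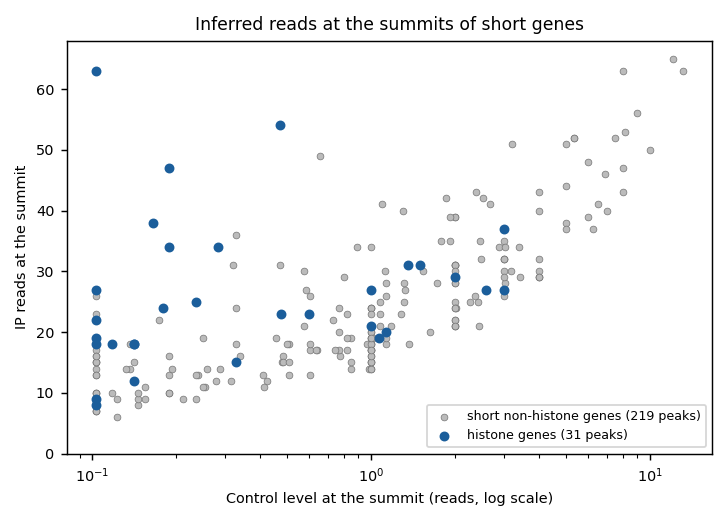
Inferred IP reads against the control level (log scale) at the summits of the 31 histone peaks (blue) and the 219 peaks of other short genes (grey). The highest histone summits, up to 63 reads, sit at control levels below 0.5, where most other short genes stay under 30 reads; the grey summits with over 40 reads mostly have a control level of 1 or more.

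The highest fold of a non-histone gene belonged to NPY4R, a receptor for pancreatic polypeptide, with 5 peaks. From 5′ to 3′ their folds were 13.3, 11.97, 16.4, 5.87 and 6.73, on 31, 31, 49, 31 and 51 reads. NPY4R is known to have a closely similar copy, NPY4R2, so these reads cannot be placed with certainty. TUG1 came next at 15.3 (10.9 to 20.8) on 36 reads, in a peak 2868 bp wide. TUG1 is best known as a long noncoding RNA, but the reference lists it as protein-coding. Its other 4 peaks, towards the 3′ end, had folds of 7.09, 4.76, 3.98 and 4.26 on 28 to 35 reads. Their control levels of 1.79 to 3.03 were above the 0.329 of the first peak, so the reads were alike and the inferred control level was not.

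ZNF770, a zinc finger gene, had peaks of 9.16, 14.01 and 10.96. The first lay at the start of the gene, where its summit window is among the sequences above, and the last was 3759 bp wide on 41 reads. GRPEL2, which encodes a nucleotide exchange factor of mitochondrial HSP70, had 13.5 (9.15 to 19.4) on 26 reads 67 bp from its start and 10.85 in a peak of 1977 bp. All 4 of its peaks after the first had a summit in the span of the antisense gene GRPEL2-AS1 as well, and the peak list gives no strand. RBBP9, a serine hydrolase gene, had 12.1 on 23 reads 79 bp from its start. CLDND1, a membrane protein gene of the claudin type, had 10.9 on 22 reads, with the summit also in the span of CLDND1-AS1. SPIN4, of a family that reads methylated histones, had a single peak of 10.4 that was 2679 bp wide, within the span of SPIN4-AS1 as well.

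KLF6, a transcription factor induced early after stimulation, shared the highest count of peaks, 7, with NXT2, a cofactor of mRNA export. From 5′ to 3′ the KLF6 folds were 10.1, 4.08, 7.68, 5.80, 5.33, 4.21 and 6.67, with 34 reads at the first. The KLF6 peaks covered 26.8% of the span. NXT2 had folds from 5.05 to 8.67 on 12 to 19 reads. EIF5, a translation initiation factor gene, had 6 peaks, of 9.29 and 9.60 at 285 and 1576 bp from its start, on 26 and 34 reads, and of 2.91 to 4.81 further on. There the reads were 32 to 47 and the control level was 3.0 to 8.0, against 0.606 and 1.00 at the first 2. The summit of the first EIF5 peak also lay in a noncoding gene span. EXOC8, a subunit of the exocyst tethering complex, had 6 peaks from 4.28 to 7.84 in 5100 bp, the densest among the genes with most peaks at 1.18 peaks per kb. CMTR2, a cap methyltransferase gene, had 5 from 4.52 to 8.67.

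TGOLN2, the gene of a trans-Golgi protein, had its strongest peak, 9.77 on 27 reads, 55 bp from the start. Its 3 other peaks had folds of 2.87 to 4.09 on 37 to 44 reads at control levels of 5.0 to 6.50, so more IP reads came with a lower fold. CHRAC1, a histone-fold protein of a chromatin remodelling complex, had 3 peaks from 7.29 to 9.72 on 39 or 40 reads each. RPL7L1, a ribosomal protein-like gene, had a single peak of 8.95 that was 51 bp wide.

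Of the 89 genes 31 had 1 peak, 58 had 2 or more and 20 had 4 or more. The lowest best folds were in MCL1, an anti-apoptotic gene of the BCL2 family (2.80 on 40 reads), PFN2, an actin-binding profilin gene (3.10), MARCKS (3.13 on 39 reads), SPC24, a kinetochore gene (3.31), and HMGN1, a nucleosome-binding protein gene (3.47 on 37 reads). These were not thin summits: PFN2 had 43 to 63 reads at each of 3 peaks, with control levels of 8.0 to 13.2.

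Wide peaks were common among the short genes. Of the 219 peaks 20, in 18 genes, were 1000 bp or more (9.13%, 5.67 to 13.8%). The share was 2.42% over all peaks in exactly 1 protein-coding gene. In genes above the limit and up to 20000 bp it was 5.52% (4.06 to 7.32%), an interval that overlaps. The median width was 165 bp (141 to 205) in short genes and 123 bp in all longer genes. Genes above the limit and up to 20000 bp lay between, at 141 bp (131 to 147). RBM15, a subunit of the complex that writes N6-methyladenosine, had the widest, 5309 bp with a fold of 9.19 on 29 reads, followed downstream by a peak of 700 bp. Together they covered 82.3% of its 7301 bp. PURB, a single-stranded nucleic acid-binding protein gene, was covered to 75.6% by 5 peaks of 3.31 to 6.21. ITPRIPL2 was covered to 73.6%, with a best fold of 8.22, SPIN4 to 65.3%, SOX4, a transcription factor gene, to 60.8%, TUG1 to 41.7%, ZNF770 to 40.8% and BAG5, a co-chaperone gene, to 36.8%. In all, 15 of 89 genes were covered to 25% or more, against 16 of 3315 longer genes, and the median coverage was 4.74% of the span against 0.941%. Part of that gap follows from the spans themselves, since a peak of given width fills more of a short gene.

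Summits in short genes were spread along the span, with a median position 32.3% of the way from the 5′ end, and were rare near the 3′ end. Strand was known for 176 of the 219 peaks, in 70 genes. Summits within 500 bp of the 5′ end numbered 30 (17.0%, 11.8 to 23.4%), each in a different gene. The share was 18.4% (15.6 to 21.6%) in genes above the limit and up to 20000 bp, inside the interval of the short genes, and 6.97% of 18052 summits in all longer genes. GRPEL2, NPY4R, RBBP9, KLF6 and TGOLN2 led them by fold. In EPM2AIP1 a wide peak of 7.39 on 22 reads reached the first 50 bases, while its summit lay 1356 bp along. Smaller peaks at the start included VAMP3, a vesicle SNARE gene, at 6.93 on 24 reads, ARL6IP1 at 7.29 on 39 reads and TMEM97 at 4.53 on 32 reads. Their summits, 21 to 57 bp from the start, are in the printed windows.

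At the 3′ end no summit lay within 500 bp (0 of 176, which allows a share of up to 1.70%), and 2 lay within 1000 bp, in MARCOL at 946 bp and NXT2 at 995 bp. Even the edge of the nearest peak was 906 bp from the 3′ end. The last summit in RBM15 lay 1098 bp from the end and that in PURB 1268 bp. In genes above the limit and up to 20000 bp 0.732% of 683 summits lay within 1000 bp. Longer genes as a whole also had few summits there, with 9 of 18052 summits within 500 bp of the 3′ end (0.0499%) and 74 (0.410%) between 1000 and 1500 bp. In the next 500 bp there were 211. The compact histone genes, of at most 1000 bp, cannot be compared, since any summit there lies within 1000 bp of the 3′ end. Of their 24 peaks with a known strand 18 ended within 50 bp of that end. With the last 1000 bp of every span left out, the density was 2.78 per Mb in genes above 2000 and up to 5000 bp, 9.08 and 12.3 in the next classes up to the limit, and 19.3 from there to 20000 bp. The remaining 43 peaks lay in 19 genes without a known strand, and 19 of these peaks were within 900 bp of one end or the other, which could be either end.

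**Figure D4:**
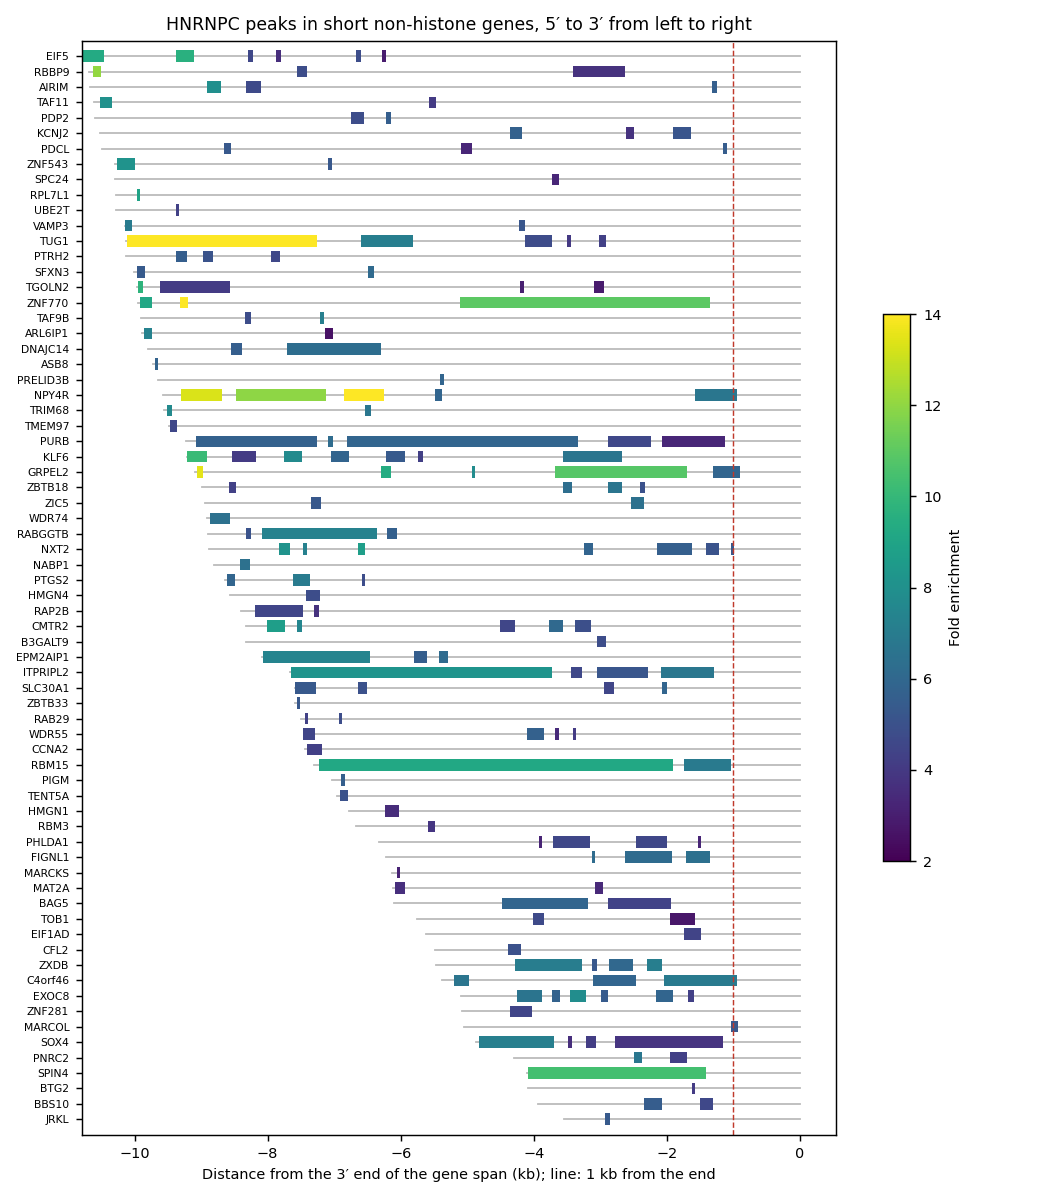
Peaks (bars, coloured by fold enrichment, with all folds of 14 or more in 1 colour) along the 70 short non-histone genes of known strand (grey lines, 1 per gene, sorted by span), drawn by distance in kb from the 3′ end, with the 5′ end at the left of each line. The dashed line marks 1 kb (1000 bp) from the 3′ end; no bar comes nearer to the end than 906 bp, while many genes have a bar at their start.

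**Figure D5:**
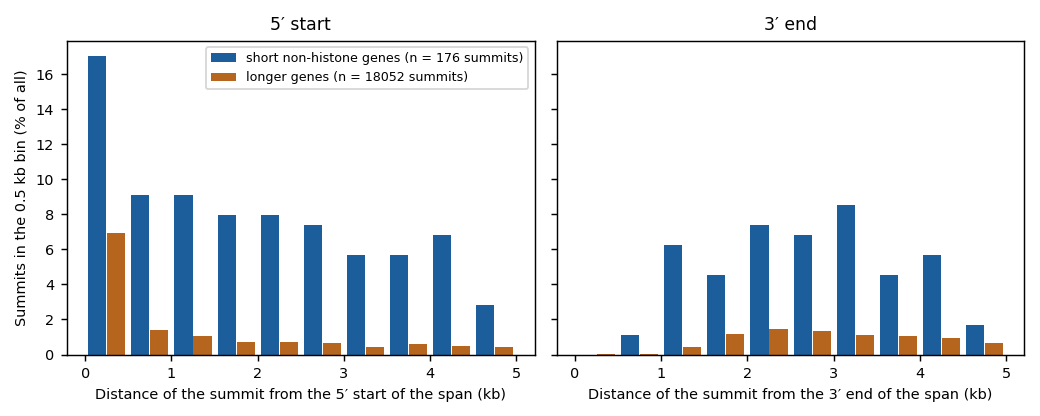
Share of summits (percent of all summits of known strand in the group) in bins of 0.5 kb (500 bp) from the 5′ start (left) and from the 3′ end (right) of the gene span, for short non-histone genes (blue, 176 summits) and longer genes (orange, 18052 summits). The first bin holds 17.0% and 6.96% at the start, and 0 and 0.0499% at the 3′ end.

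By function, only 17 of the 89 short non-histone genes with a peak fell in any gene group used here. The function of the rest was not described. Of 32 gene groups beside the replication-dependent histones, 22 had no member with a peak. Zinc finger genes named ZNF had 4 of 74 members within the limit (5.41%, 1.49 to 13.3%), with best folds of 14.01 in ZNF770, 8.19 in ZNF543, 6.75 in ZNF417 and 4.46 in ZNF281. Immediate early and stress response genes had 3 of 35 (8.57%, 1.80 to 23.1%): KLF6 at 10.1, BTG2 at 4.08 and MCL1 at 2.80. Translation factors had 2 of 19, EIF5 at 9.60 and EIF1AD at 4.42. Of the SOX, FOX and POU factors 2 of 57 had a peak, SOX4 at 7.11 and SOX9 at 5.34, and of the small GTPases 2 of 38, RAB29 at 4.79 and RAP2B at 4.48. DNAJC14 (6.24) was the 1 chaperone gene of 26, and CCNA2 (4.26), which encodes cyclin A2, the 1 of 8 cyclins and CDK inhibitors. TMEM97 (4.53) was the 1 of 90 TMEM genes and KLF6 the 1 of 10 KLF and SP factors. In the ribosomal protein group of 74 genes the 1 with a peak was RPL7L1, a ribosomal protein-like gene. The intervals of all these shares hold the 1.51% of short non-histone genes, except that of the immediate early genes. That exception rests on 3 genes. The 32 groups were chosen with earlier results of these data known, and no allowance was made for their number. No enrichment is read from it.

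Several groups whose mRNAs are usually abundant had no peak in any short member. None of 42 mitochondrial ribosomal protein genes had one (up to 7.14% allowed), none of 47 respiratory chain genes, 20 proteasome genes, 18 tubulin and actin genes, 14 SR, Sm and LSm genes, 12 hnRNP genes, 11 metallothioneins or 4 ubiquitin genes. The 13 other histone genes, whose mRNAs are mostly polyadenylated, had none either, where the 66 replication-dependent ones had 31. Tissue-restricted groups were empty too, with 0 of 330 olfactory receptors, 0 of 94 keratin-associated protein genes, 0 of 44 keratins, 0 of 42 MAGE, BEX and TCEAL genes, 0 of 36 orphan G protein-coupled receptors, 0 of 35 chemokines, 0 of 33 HOX genes and 0 of 15 claudins. The regulators of the SOCS, SPRY and DUSP families (15 genes) and of the HES, HEY and ID families (12 genes) had none. Of the short marker genes 0 of 8 for lung epithelium, 0 of 8 for blood and 0 of 5 for liver had a peak, so the peaks do not check the identity of the cells. At a background of 1.51%, most of these groups are too small for a count of 0 to be told apart from the other short genes.

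The length limit itself cut through a continuum. Just inside it lay ZNF417 (10819 bp, 4 peaks, best fold 6.75), EIF5 (10789 bp) and H2BC4, and just outside NKAPD1 (10852 bp, 2 peaks, 4.63), BCL10 (10857 bp, 3 peaks, 7.46) and DTX3L (10866 bp, 6 peaks, 8.19).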

How the data were processed

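RIP-seq peaks of 1 HNRNPC IP library from A549 cells were analysed. The tools HISAT2, MACS2 and bedtools and the build hg38 stand in the submitters' processing notes; their versions, roles and settings and the control are not given in the sources used here. The deposited peak list holds positions and summits, a fold enrichment (a ratio), −log10 values of p and q (p-values), and a score, which was 10 times the −log10 q truncated to a whole number for each of 23148 peaks. Gene spans came from RefSeq (GRCh38.p14), and strand and sequence from its gene start table.

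IP reads and control level were solved from fold and p, a step added after the values were seen and tested on simulated data. The total depth is unknown. The members and gene lists were chosen with earlier results of these data known. Named genes were all histone genes with a peak; of the others the 15 of highest best fold, 10 with most peaks, 8 most covered, 5 of lowest best fold, 3 on each side of the limit, up to 4 of each list and up to 10 with a peak over the start window. VAMP3, ARL6IP1, TMEM97, MARCOL and genes named in the closing section alone were picked after their values were seen. A planned comparison of protein identity was not made. Alternatives changed the q limit (0.001), the fold (at least 4), the overlap rule, the span limit (5000 bp) and the treatment of noncoding spans. Software was Python 3.11.15 with matplotlib 3.10.9, scipy 1.17.1, pandas 2.3.3 and numpy 2.4.6.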

Additional observations from a re-analysis of the deposited data

Results flagged for a closer look

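Peaks that the comparisons above leave out were found in 65 cases, where the summit lay in a short span and in a further protein-coding span as well, so that no gene could be named as the source. They touched 36 short genes and had a median fold of 6.01, with 15.6 as the highest. YOD1, a deubiquitinase gene, held 9 of them, shared with PFKFB2. THUMPD1 held 6, shared with ACSM3, and NPY4R2 held 5, shared with ANXA8. The NPY4R2 peaks had folds of 14.7, 10.2, 8.45, 5.48 and 4.80.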

How the results depend on the processing

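Of 63 values recomputed under 7 alternatives, 58 stayed within 1.5 times the main count or inside the main value's interval. With q of 0.001 or less the median fold of the non-histone peaks was 5.87 in place of 5.55. With a span of 5000 bp or less there were 43 peaks in 37 genes, most of them histone genes, a non-histone median fold of 5.05 over 13 peaks, and for 9.09% of 11 summits a place in the third of the span nearest the 3′ end, against 18.8% of 176. Counting shared summits for the shortest gene gave 315 peaks in 155 genes. No paired analysis was possible because each group has 1 library. Folds rest on 6 to 65 IP reads per summit, peaks beside each other in a gene may share reads, and reads of histone copies may be split.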

Other observations

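In 14 of the 219 non-histone peaks the summit also lay in a noncoding gene span, and in no histone peak. Both peaks of TSPYL5 and the peak of LRATD2 lay inside spans of long noncoding RNA genes, as did 2 of 5 in CMTR2 and 1 in WDR55. The first peak of EIF5 and the peak of PRELID3B had a summit in a noncoding span too. Without the 14 peaks 236 peaks in 116 genes were left, with a median fold of 5.51 for the non-histone genes. The zinc finger gene ZBTB33 had 1 peak of its own, at 5.27, and 3 further peaks of 5.74 to 6.09 where its span overlaps that of TMEM255A.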
